A study of Mus musculus with 9 samples.

Results

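The cells described here are the peripheral glia and nerve-associated cells of the mouse thyroid, which the authors marked with the label S. They were chosen by that deposited label alone, and they numbered 193 of 10186 cells, or 1.89%. The series asked what blocking Notch ligands or Notch receptors does to thyroid cells of adult male C57BL/6 mice. Each of the 9 samples was a pool of thyroids from 6 mice, taken 7 days after 1 intraperitoneal injection of antibody and profiled as single cells by droplet sequencing of transcript 3′ ends. Group RW (samples 1, 2 and 3) received a control antibody to ragweed at 40 mg/kg. Group aJ1aJ2 (samples 1, 3 and 4) received antibodies to the ligands Jag1 and Jag2 at 20 mg/kg each. Group aN1aN2 (samples 1, 2 and 3) received antibodies to the receptors Notch1 and Notch2 at 5 and 10 mg/kg. The mice were at least 10 weeks old, and the labels give both 12 and 14 weeks as the upper age. All groups carried an injected antibody, and no group was left without one.

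Schwann cells are the glia of peripheral nerves. A myelinating Schwann cell wraps a single axon in compacted membrane held together by proteins such as Mbp, while a non-myelinating Schwann cell holds several thin axons in a bundle. Autonomic nerves reach the thyroid from sympathetic and parasympathetic ganglia, and parasympathetic neurons typically release acetylcholine with the vasoactive intestinal peptide, Vip. Notch1 on Schwann cells and Notch ligands on their neighbours are known to act in Schwann cell formation and in the response to nerve injury.

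The marker genes Mbp and Kcna1 were found in most cells of the label, and Vip in a small set of barcodes. Mbp, a myelin protein, had at least 1 unique molecular identifier (UMI, 1 counted transcript) in 175 of 193 cells, or 90.7% (exact 95% interval 85.7 to 94.4%), at a median of 2215 UMIs per cell. The same share was 1.75% in the endothelial label EC1 (median 3994 UMIs) and 29.3% in the thyrocyte label Th1 (median 12553 UMIs). With every cell thinned to 500 UMIs, the shares were 66.3% in S and 1.63% in Th1. The axonal and glial potassium channel gene Kcna1 had a UMI in 136 cells. The glial transcription factor gene Sox10 had one in 105. Vip had a UMI in 8 cells. Of the 16 general Schwann genes listed, all 16 were at their highest level in S among the 16 labels. Of the 18 myelin genes, 17 were, of which Pmp2 rests on 1 UMI, the exception being Gjb1, at 71.5 CPM in S and 193 in Th1 (UMIs of the gene relative to all UMIs of the label, scaled as CPM). The leukocyte genes Ptprc and Tyrobp were at 0 in S.

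The S cells were few in every sample. RW 1, 2 and 3 held 28, 13 and 21, aJ1aJ2 1, 3 and 4 held 9, 37 and 48, and aN1aN2 1, 2 and 3 held 19, 14 and 4. Their depth differed between groups, with a median of 2871 UMIs per cell in RW, 2414 in aJ1aJ2 and 875 in aN1aN2. In all, 15 barcodes occurred in 2 libraries, and 0 of them carried the label S. Single libraries and barcodes stand apart in this label, above all 8 deep barcodes with Vip in RW 1, so counts of called genes and the values they move most are given with and without them.

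Sorting the 193 cells by k-means into 4 clusters separated myelinating, non-myelinating and neuronal profiles. The cluster genes are a description, since the same cells made the clusters. The Vip barcodes were 1 cluster of 8. Clusters of 84 and 25 cells had 5 and 3 of the 18 myelin genes among their 10 leading genes, and they were joined as the myelinating-like class of 109 cells. The cluster of 25 was shallow, with a median of 702 UMIs against 2293 in the cluster of 84. The remaining 76 cells were taken as non-myelinating-like. Their 10 leading genes held 1 of the 12 non-myelinating genes (Scn7a), 1 general Schwann gene (Gfra3) and no marker of another listed cell type, and their class rests mainly on Scn7a, Matn2, Chl1, Ncam1 and L1cam. Other genes of the non-myelinating list were nearly absent from it: Gfap, a glial filament gene, had 2 UMIs in 2 of the 76 cells, Gap43 had 4 in 2, and Ngfr had 12 in 9. Both classes were present in all 9 samples.

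The myelin genes together made up a median of 5.80% of the UMIs of a myelinating-like cell (range 1.27 to 18.6%) and 0.443% of a non-myelinating-like cell (0 to 1.89%). The non-myelinating genes made up a median of 0% (0 to 0.209%) and 0.886% (0.0167 to 2.89%). The plot of both shares per cell shows the classes on separate arms, with the ranges of the myelin share overlapping between 1.27 and 1.89%.

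**Figure D1:**
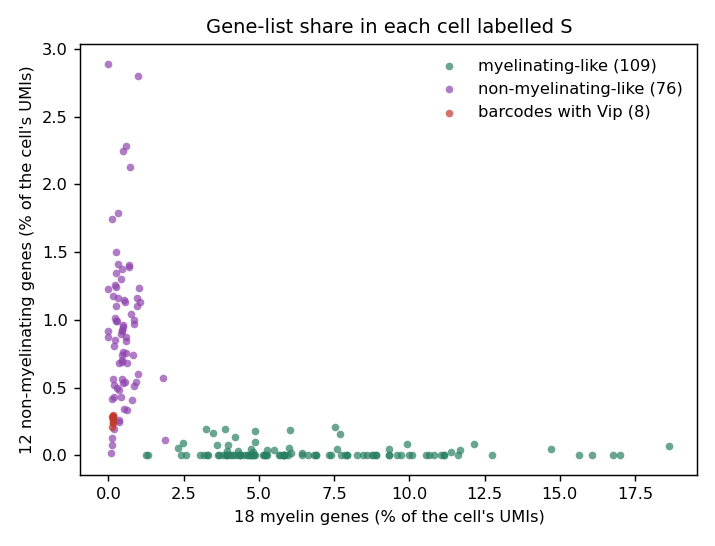
Share of each cell's UMIs in the 18 myelin genes (x axis, %) against the share in the 12 non-myelinating genes (y axis, %), 1 point per cell labelled S. The 109 myelinating-like cells lie along the x axis up to 18.6%, the 76 non-myelinating-like cells along the y axis up to 2.89%, and the 8 Vip barcodes lie together near the origin.

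In the myelinating-like class, genes of the compact sheath and of its attachment to the axon were found together. Mbp was in 108 of 109 cells and at 10093 CPM. Prx and Drp2, which link the outer sheath to its basal lamina, were in 92.7 and 87.2% of the cells. Thinned to 500 UMIs per cell they were in 60.6 and 56.9%, against 0 and 2.63% of the non-myelinating-like cells. Cldn19, a tight junction gene of the sheath, was in 61.5%, and Ncmap, a myelin membrane gene, in 68.8%. Gldn and Nfasc, which help to form the node of Ranvier, were in 28.4 and 32.1% of the myelinating-like cells and at 0 UMIs in the non-myelinating-like cells. Cntf, a growth factor that Schwann cells store, was at 1466 CPM in the myelinating-like class and 235 in the other. Egr2, the transcription factor that drives peripheral myelination, had 19 UMIs in S. Pmp2, a lipid carrier of some myelin sheaths, had 1 UMI in S, so its level could not be compared.

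In the non-myelinating-like class, adhesion, channel and growth factor receptor genes were found. Scn7a, an atypical sodium channel, was in 90.8% of the cells and in 3.67% of the myelinating-like cells, or 77.6 and 1.83% thinned to 500 UMIs. Cdh19, a Schwann lineage cadherin, was in 93.4 and 14.7%. Scn7a is not particular to these cells, since it was also in 371 of 538 cells of the fibroblast label F (69.0%, or 15.6% thinned to 500 UMIs). The adhesion genes Chl1, Ncam1 and L1cam were in 76.3, 61.8 and 53.9% of the non-myelinating-like cells and in 0.917, 1.83 and 0.917% of the others. Gfra3, the receptor subunit for the growth factor artemin, had 240 UMIs in 48 of 76 non-myelinating-like cells and 0 in the 109 others. Kcna2 and Kcna6, potassium channel genes, were in 86.8 and 65.8% against 44.0 and 6.42%, although Kcna1 was frequent in both classes, at 85.5 and 59.6%. Mbp was in 59 of the 76 cells at 865 CPM, against 28 of 1603 cells in EC1. General Schwann genes were found in both classes: Sox10 was in 46.8 and 63.2% (16.5 and 26.3% thinned to 500 UMIs), and S100b, a calcium-binding glial protein, in 78.0 and 72.4% of myelinating-like and non-myelinating-like cells.

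**Figure D2:**
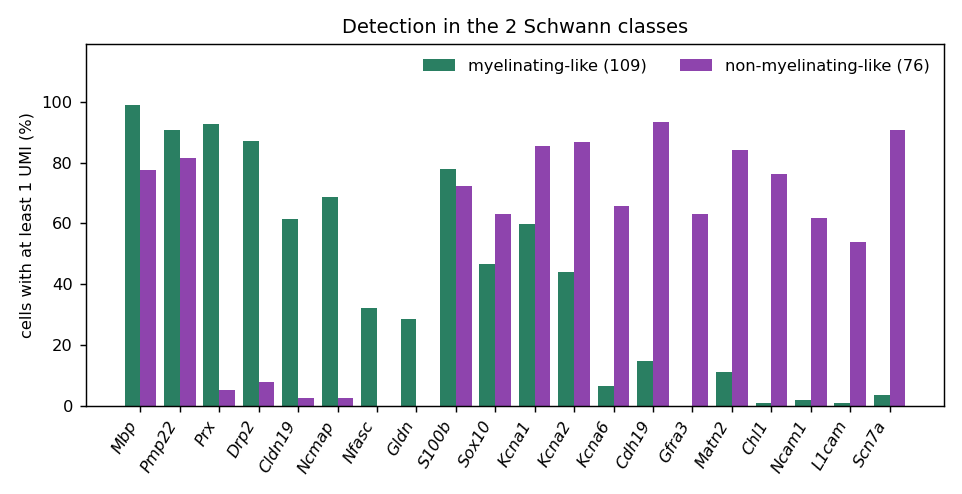
Percentage of cells with at least 1 UMI (y axis) for 20 genes (x axis) in the 109 myelinating-like and 76 non-myelinating-like cells, whose median depths were 1618 and 2652 UMIs. Gldn and Nfasc were found only among the myelinating-like and Gfra3 only among the non-myelinating-like cells, while S100b and Sox10 were found in both.

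The genes of the nerve injury response were unevenly found. Of the 10 injury-response genes listed, Shh, Gdnf, Olig1, Artn and Bdnf were at 0 UMIs in S, where 3 of 657194 UMIs is the level a count of 0 allows, for counting error only. Gap43, a growth cone protein gene that is also used by repair Schwann cells and neurons, had 252 of its 256 UMIs in the Vip barcodes. Ngfr, the low-affinity neurotrophin receptor, had 26 of 39 there. The listed genes also include Sox2, an immature glia transcription factor, which had 28 of its 30 UMIs in 19 other S cells, and Ccl2, a chemokine, whose 16 UMIs all lay in the Vip barcodes. Of the 10 genes 4 were at their highest level in S among the labels. Jun, the transcription factor of the repair state, had 99 UMIs in 60 S cells at 151 CPM, and was at 343 in EC1.

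Notch genes were thinly measured in S. Notch1 had 34 UMIs and Notch2, the other receptor blocked, had 57, at 51.7 and 86.7 CPM. Jag1 had 18 UMIs and Jag2 had 6, all 6 in the Vip barcodes. Notch1 had 17 UMIs in RW, 16 in aJ1aJ2 and 1 in aN1aN2, and Notch2 had 34, 21 and 2. These are raw counts over unequal totals. S cells held 41403 to 230832 UMIs per pool in RW, 39425 to 114997 in aJ1aJ2 and 3546 to 27696 in aN1aN2, so the counts do not compare levels. Of the Notch targets, Hes1 had 45 UMIs (68.5 CPM) and Hes5 had 0. Hey2 and Heyl had 13 and 6, all in the Vip barcodes. Of the 12 Notch targets listed, 1 entered the test in each comparison below. For aN1aN2 against RW it was Cdkn1a, and a change of the other targets was not tested.

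A group of 8 barcodes in RW 1 carried a neuronal profile. They held all 856 Vip UMIs of the label, and 7 more Vip UMIs lay among the 9993 cells outside it. They were deep, at 10535 to 33771 UMIs (median 21017), against a median of 2076 in the 185 other S cells. They supplied 183357 UMIs, or 79.4% of the S counts of RW 1 and 27.9% of all S counts. Each held 16 to 20 of the 21 neuron genes listed, and no other S cell held more than 4. The plot of neuron genes per cell shows all 8 in 1 library.

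**Figure D3:**
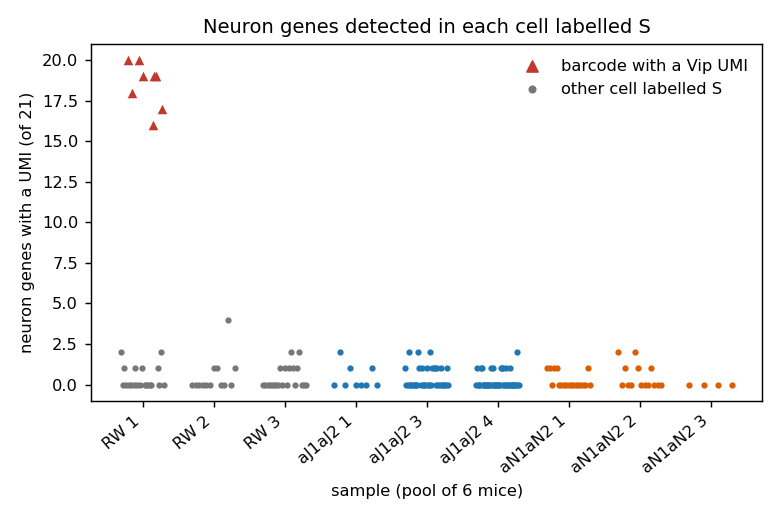
Number of the 21 listed neuron genes with a UMI (y axis) in each cell labelled S, by sample (x axis, pools of 6 mice). The 8 barcodes with Vip, drawn as triangles, all lie in RW 1 at 16 to 20 genes, and the 185 other cells have at most 4.

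These barcodes held peptide, transmitter and lineage genes that are known from cholinergic autonomic neurons, but not all of those listed. The choline transporter gene Slc5a7 had 71 UMIs, the vesicular acetylcholine transporter gene Slc18a3 had 68, and the acetylcholinesterase gene Ache had 139, in all 8 barcodes each. Slc18a3 lies inside Chat on chromosome 14, on the same strand. Chat itself, the acetylcholine-making enzyme gene, had 0 UMIs. The nicotinic receptor subunit genes Chrna3 and Chrnb4 had 57 and 13. Th and Dbh, the enzymes of noradrenaline synthesis, were at 0. The autonomic transcription factor gene Phox2a had 81 UMIs, Hand2 had 88, and the growth factor receptor gene Ret had 127. The filament gene Prph had 363 UMIs, the tubulin gene Tubb3 had 393, and Snap25, a synaptic release gene, had 180. Among other peptides, Npy had 43, Calcb had 28 and Adcyap1 had 17. The peptide genes Gal, Cartpt, Sst, Pdyn, Cck and Pnoc had 0 in S, and Nos1, the neuronal nitric oxide synthase gene, had 0 in these barcodes. Pcsk1n, an inhibitor of peptide processing, had 1080 of its 1097 S UMIs there. These are description, since the cells were set apart by their expression.

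The 250 bases before the start of Vip are shown because this gene carries the neuronal finding, and they hold a cyclic AMP response element, a site class through which Vip is known to be regulated. The sequence is RefSeq's for GRCm38.p6, chr10:5638968-5639217, plus strand, written 5′ to 3′, with the letters TGACGTC searched on both strands and the match in capitals.
Vip promoter: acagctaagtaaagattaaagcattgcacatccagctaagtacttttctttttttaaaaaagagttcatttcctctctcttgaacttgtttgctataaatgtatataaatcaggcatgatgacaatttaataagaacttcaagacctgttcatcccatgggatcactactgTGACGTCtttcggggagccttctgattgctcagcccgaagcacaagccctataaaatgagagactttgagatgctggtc
The match begins 79 bases before the start. Of 32851 promoter windows of this length, 2.78% hold these letters on either strand.

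The 8 barcodes resembled each other about as closely as repeated samples of 1 RNA pool. A chi-square of their counts over 790 genes gave 1.27 per degree of freedom, and 1.06 without mitochondrial, globin, Malat1 and Gm42418 counts. The same measure was 2.06 for 8 Th1 cells and 2.22 for 8 EC1 cells of RW 1 at like depth, and 6.44 and 7.45 for the 8 deepest myelinating-like and non-myelinating-like cells, which were shallower. It was 10.9 for 8 F cells of RW 1. Their barcodes differed by at least 9 of 16 bases. Fabp7, a glial fatty acid carrier, had 0.226 to 0.496 UMIs per Vip UMI, and Dcn, a matrix gene of fibroblasts, had 0.209 to 0.427, in every barcode. They are therefore not treated as 8 separate neurons. Whether they come from 1 cell or several was not tested, and they are 1 library of the control group.

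Other single barcodes also carried much of 1 gene, and these were picked after their values were seen. Lyz2, a lysozyme gene of macrophages, had 395 of its 397 S UMIs in 4 barcodes, 1 each in aJ1aJ2 1, 3 and 4 and aN1aN2 2, while Ptprc, Tyrobp and C1qa were at 0 in all 4. The same 4 held 52 of 69 UMIs of Col20a1, a collagen gene, 27 of 35 of Bche, a cholinesterase gene, and 47 of 52 of Ttn, the giant muscle protein gene. Dcn had 131 UMIs in 1 barcode of RW 3 and 330 in 1 of aJ1aJ2 4, beside 103 and 57 UMIs of Mbp.

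The share of S cells was compared between groups over pools. It was 2.24, 0.987 and 2.00% in RW 1, 2 and 3 (1.74% ± 0.666, SD, n = 3). It was 1.54, 2.05 and 3.07% in aJ1aJ2 1, 3 and 4 (2.22% ± 0.778, SD, n = 3) and 1.81, 1.58 and 0.582% in aN1aN2 1, 2 and 3 (1.33% ± 0.655, SD, n = 3). The groups overlapped in every pairing. The differences were 0.479 percentage points for aJ1aJ2 against RW (exact two-sided permutation p = 0.5), -0.417 for aN1aN2 against RW (exact p = 0.5) and -0.895 for aN1aN2 against aJ1aJ2 (exact p = 0.3). Without the 8 Vip barcodes RW 1 was at 1.61%, and the differences from RW were 0.689 points for aJ1aJ2 (exact p = 0.4) and -0.206 for aN1aN2 (exact p = 0.6). With all S cells the 3 adjusted values were 0.5, and 3 against 3 pools cannot give a p below 0.1.

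**Figure D4:**
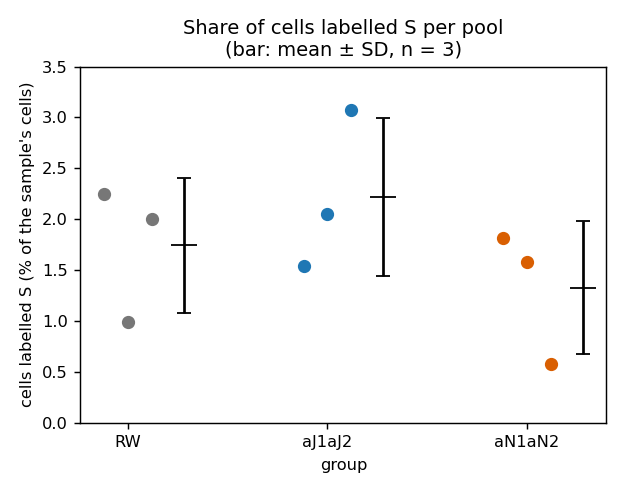
Cells labelled S as a percentage of all cells of the pool (y axis) in the 3 groups (x axis). Points are pools, and bars give the mean ± SD of 3 pools. The ranges overlap, from 0.987 to 2.24% in RW, 1.54 to 3.07% in aJ1aJ2 and 0.582 to 1.81% in aN1aN2.

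The next comparison asked whether ligand blockade changed gene levels in S. The test used pools with at least 20 S cells, which were RW 1 and 3 and aJ1aJ2 3 and 4. With edgeR's quasi-likelihood test, 0 of 2070 genes (0%) passed a Benjamini-Hochberg adjusted p under 0.05, and 237 had an unadjusted p under 0.05. Without the 8 Vip barcodes it was 0 of 1559 (0%), with 114 at an unadjusted p under 0.05. DESeq2 called 2 genes. Leaving out RW 1 gave 36 calls and leaving out RW 3 gave 1118, against 5 and 4 without aJ1aJ2 3 and 4, each time with a lone pool assumed to vary like the others. With the series in the sample titles as a covariate 840 genes passed. RW 3 was the only pool of its series in this fit, so that value compares RW 1, which holds the Vip barcodes, with both aJ1aJ2 pools. The CPM values per pool in this and the next comparisons are scaled by the TMM factors of the fit, while sums over classes or labels are not.

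Myelin, channel and Schwann genes gave no call under ligand blockade. Of the 18 myelin genes 15 were tested and 0 passed, with a median log2 difference of 0.69 beside -0.02 over all 2070 genes. Once the Vip barcodes were left out the median was -0.21 beside -0.01, so the sign of the myelin median turned on those barcodes. Mbp was at 1764 and 4872 CPM in RW 1 and 3 and at 5536 and 4761 in aJ1aJ2 3 and 4, and RW 1 read 7140 once the Vip barcodes were left out. The log2 difference of Mbp was 0.64 with them (edgeR adjusted p = 0.631) and -0.21 without (adjusted p = 0.893). The 6 non-myelinating genes tested had a median of -0.15, and -0.18 without the barcodes. None of the 16 general Schwann genes passed, at medians of 0.57 and 0.05.

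The genes with the smallest p under ligand blockade did not reach the threshold. Isg15, an interferon-induced gene, was at 172 and 248 CPM in RW 1 and 3 and at 8.54 and 0 in aJ1aJ2 3 and 4 (edgeR adjusted p = 0.198), and it was not among the genes tested without the Vip barcodes. Igfbp6, which binds insulin-like growth factor, was at 850 and 2312 CPM in RW 1 and 3 and 34.2 and 156 in aJ1aJ2 (log2 difference -4.04, SE 0.80, adjusted p = 0.21). RW 1 read 64.5 CPM of Igfbp6 without the Vip barcodes. Fabp7 was at 1495 and 261 CPM in RW and 76.9 and 36.8 in aJ1aJ2 (adjusted p = 0.241). Without the Vip barcodes RW 1 read 323 CPM of Fabp7, and the adjusted p of Fabp7 was 0.655. In the same smaller fit Serpinh1, a collagen chaperone gene, was at 559 and 478 CPM in RW and 189 and 225 in aJ1aJ2 (adjusted p = 0.655), and Cdh19 was at 387 and 478 against 997 and 778 (adjusted p = 0.655).

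Receptor blockade could be compared only at a lower minimum of cells, since no aN1aN2 pool held 20 S cells. With at least 10 S cells, RW 1, 2 and 3, aJ1aJ2 3 and 4 and aN1aN2 1 and 2 entered 1 fit. Against RW, 18 of 1419 genes (1.27%) passed with edgeR, all 18 higher in aN1aN2 (1.27%), and 247 had an unadjusted p under 0.05. Without the Vip barcodes 51 of 933 genes (5.47%) passed, 33 higher (3.54%) and 18 lower (1.93%), and all 18 of the first calls were among them. DESeq2 called 37 genes, 17 of them among the 18. The aN1aN2 pools also carry their own range of sample numbers in the titles, so treatment and that series cannot be told apart. They were shallower, with 20214 and 27696 S UMIs in aN1aN2 1 and 2 against 41403 to 230832 in RW. Leaving out aN1aN2 2 left 0 calls, leaving out aN1aN2 1 left 3 and leaving out RW 1 gave 33, with a lone pool assumed to vary like the others where 1 was left.

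Metallothioneins, small metal-binding proteins, rose under receptor blockade. Mt1 was at 524, 1105 and 786 CPM in RW 1, 2 and 3, at 1813 and 2258 in aJ1aJ2 3 and 4, and at 11736 and 14333 in aN1aN2 1 and 2 (log2 difference from RW 4.04, SE 0.41, edgeR adjusted p = 0.000368). Mt2 was at 125, 344 and 122 CPM in RW, 455 and 495 in aJ1aJ2 and 2946 and 6640 in aN1aN2 (log2 4.72, SE 0.56, adjusted p = 0.000582). Both aN1aN2 pools lay above every other pool for both genes. Without the Vip barcodes the log2 difference was 3.67 for Mt1 (SE 0.28, adjusted p = 3.82e-05) and 4.19 for Mt2 (SE 0.44, adjusted p = 0.000545). The rise was seen in both glial classes: Mt1 was at 1453 CPM in myelinating-like cells of RW and 15780 in those of aN1aN2, and at 610 and 10338 in non-myelinating-like cells, summed over pools with no test.

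Their 250 upstream bases are shown because this pair rose together and metal response elements are the known control sites of metallothioneins. They are RefSeq's for GRCm38.p6, plus strand, 5′ to 3′, at chr8:94178839-94179088 for Mt1 and chr8:94172368-94172617 for Mt2. The letters TGCGCNC were searched on both strands, with matches in capitals.
Mt1 promoter: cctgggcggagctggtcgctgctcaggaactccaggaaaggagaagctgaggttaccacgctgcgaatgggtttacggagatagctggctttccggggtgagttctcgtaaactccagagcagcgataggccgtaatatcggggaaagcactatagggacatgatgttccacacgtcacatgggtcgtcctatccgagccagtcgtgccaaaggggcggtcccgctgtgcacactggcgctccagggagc
Mt2 promoter: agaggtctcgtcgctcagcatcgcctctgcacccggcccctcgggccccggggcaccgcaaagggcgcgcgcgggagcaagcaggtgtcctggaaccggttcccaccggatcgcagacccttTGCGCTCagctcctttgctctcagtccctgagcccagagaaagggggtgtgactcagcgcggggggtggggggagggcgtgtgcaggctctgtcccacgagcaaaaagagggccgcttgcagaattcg
Mt2 has 1 match to these letters, which begins 128 bases before the start, and Mt1 has 0 in this window. Only these letters were searched, so other forms of the element and sites outside the window were not counted. The 0 for Mt1 is therefore no sign that Mt1 lacks the element. Of 32851 windows, 12.5% hold the letters, and of the 18 called genes 14 had a window, of which 4 held them.

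Apod, a lipid-binding lipocalin of Schwann cells and fibroblasts, rose as well. It was at 585, 958 and 596 CPM in RW, 1627 and 3032 in aJ1aJ2 and 8495 and 19304 in aN1aN2 (log2 4.30, SE 0.48, adjusted p = 0.000482). RW 1 read 2094 CPM of Apod without the Vip barcodes, where the log2 difference was 3.60 (adjusted p = 0.00364). Apod was found in 14 of 15 non-myelinating-like cells of aN1aN2, in 8 of 19 of RW and in 23 of 42 of aJ1aJ2, with no test over cells. Thinned to 500 UMIs per cell, the numbers were 14, 2 and 14.

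Genes known to respond to glucocorticoids were among the other calls. Of the 7 glucocorticoid-response genes listed, 4 were tested and 2 rose, Tsc22d3 and Cdkn1a, where 1.27% of all genes were called, with a list median of 2.71 beside -0.16 over all genes. Tsc22d3, a leucine zipper protein induced by glucocorticoids, was at 153, 319 and 244 CPM in RW and 2308 and 1778 in aN1aN2 (log2 3.15, edgeR adjusted p = 0.00499, and log2 2.57 without the Vip barcodes). Cdkn1a, a cell cycle inhibitor that is also on the Notch target list, was at 186, 491 and 420 CPM in RW, 784 and 756 in aJ1aJ2 and 1866 and 1560 in aN1aN2 (adjusted p = 0.0398). Without the Vip barcodes Klf9, a transcription factor gene, made 3 of 4, where 5.47% of all genes were called, at a median of 1.66 beside 0.00 over all genes. Ddit4, an inhibitor of growth signalling, was at 41.8, 123 and 81.3 CPM in RW and 638 and 726 in aN1aN2 (adjusted p = 0.0107).

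Further called genes belong to no list used here. Plin4, a lipid droplet coat gene, had 0 UMIs in RW and 7 and 8 in aN1aN2 1 and 2, which is at least 34.4-fold higher when RW is set at a floor of 3 UMIs over the group (edgeR adjusted p = 0.0107), and at least 17.6-fold higher without the Vip barcodes. Arrdc2, an arrestin domain gene, had 0 in RW and 22 and 8 in aN1aN2, or at least 68.9-fold higher (adjusted p = 0.0049), and at least 35.2-fold without the Vip barcodes. Slc7a2, a transporter of basic amino acids, was at 32.5, 24.6 and 40.7 CPM in RW and 344 and 472 in aN1aN2 (adjusted p = 0.0107). Isyna1, the enzyme of inositol synthesis, had 2, 1 and 0 UMIs in RW and 5 and 9 in aN1aN2 (adjusted p = 0.0398), and its 3 UMIs in RW leave the ratio loosely set. Fth1, the iron-storing ferritin heavy chain, was at 9120, 14149 and 10841 CPM in RW and 50429 and 37846 in aN1aN2 (log2 1.96, adjusted p = 0.0131).

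Nupr1, a stress-induced chromatin protein gene, was at 37.1, 73.7 and 0 CPM in RW, 59.0 and 93.3 in aJ1aJ2 and 344 and 1343 in aN1aN2 (log2 4.64, SE 0.80, edgeR adjusted p = 0.0107). Its 44 UMIs in aN1aN2 glia all lay in 9 of the 22 myelinating-like cells, and the 15 non-myelinating-like cells had 0. Pja1, a ubiquitin ligase gene, was at 78.9, 24.6 and 54.2 CPM in RW and 442 and 907 in aN1aN2 (adjusted p = 0.01). Of the 18 calls, 17 had aN1aN2 pools that did not overlap those of RW, as was so for 33.2% of all 1419 genes tested. The exception was Lyz2, whose 52 UMIs in aN1aN2 2 came from 1 of the barcodes described above.

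With all S cells 0 genes passed as lower under receptor blockade, and 18 did when the Vip barcodes were left out. Gfra3 and Serpinh1 also passed without RW 1 and with low counts kept, and Igfbp7 passed in both of those and with DESeq2. Most other fits did not call them. Counting the fit without the barcodes, Gfra3 and Serpinh1 each passed in 3 of 13 alternatives and Igfbp7 in 4 of 15. Without the barcodes Gfra3 was at 440, 442 and 899 CPM in RW 1, 2 and 3, at 498 and 364 in aJ1aJ2 3 and 4 and at 51.3 and 0 in aN1aN2 1 and 2 (edgeR adjusted p = 0.0124, and 0.133 with all S cells). Gfra3 was found in 15 of 19 non-myelinating-like cells of RW, 30 of 42 of aJ1aJ2 and 3 of 15 of aN1aN2, at median depths of 3657, 2730 and 875 UMIs. With each cell thinned to 500 UMIs it was found in 10, 14 and 1, with no test over cells. Serpinh1 was at 545, 491 and 470 CPM in RW and 51.3 and 38.2 in aN1aN2 (log2 -3.45, SE 0.56, adjusted p = 0.00672). Postn, a matrix protein gene, was at 230, 172 and 304 CPM in RW and at 0 in both aN1aN2 pools (adjusted p = 0.0368). Ccn2, a secreted matrix regulator, was at 1089, 688 and 526 against 103 and 0 (adjusted p = 0.0247). In aN1aN2 1 and 2, 1 UMI is 49.5 and 36.1 CPM before TMM scaling. The aN1aN2 values of Gfra3, Serpinh1, Postn and Ccn2 therefore rest on few or no UMIs, which leaves these differences loosely set. The chaperone genes Calr and Pdia3 were also among the 18 lower calls.

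The myelin genes were called at about the share of all genes under receptor blockade. Of 14 tested, 0 passed with all S cells, at a median of 0.75 beside -0.16 over all genes. In the fit lacking the Vip barcodes 1 of 14 rose, where 5.47% of all genes were called, at a median of 0.27 beside 0.00 over all genes. That gene was Drp2, at 796, 933 and 636 CPM in RW and 1590 and 1681 in aN1aN2 (log2 1.07, SE 0.27, edgeR adjusted p = 0.0440). Drp2, Mbp and Fth1 were the leading genes of the shallow myelinating-like cluster, which held 3, 2 and 1 cells of RW 1, 2 and 3 and 5 and 3 of aN1aN2 1 and 2. The part of this cluster in their differences was not tested. Mbp was at 6954, 8032 and 4897 CPM in RW and 11438 and 10124 in aN1aN2 in that fit (log2 0.70, SE 0.27, adjusted p = 0.158). Kcna1 was at 1320, 1376 and 1978 CPM in RW and 1077 and 344 in aN1aN2 (log2 -1.20, SE 0.41, adjusted p = 0.122). Of the 11 node and channel genes 6 were tested there and 0 passed, at a median of -0.18, which was 0.24 over 7 genes with all S cells. Lgi4, a secreted protein that Schwann cells need for myelination, rose there from 189, 344 and 456 CPM to 1180 and 1108 (log2 1.75, SE 0.36, adjusted p = 0.0155). In aN1aN2 its 56 UMIs in glia lay in 14 of 15 non-myelinating-like cells, and the 22 myelinating-like cells had 0. Of 6 non-myelinating genes tested 0 passed, at medians of 0.31 and 0.47 without the barcodes.

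Against ligand blockade, 3 of 1419 genes (0.211%) were higher in aN1aN2 with all S cells, Mt1, Mt2 and Ddit4, and 126 had an unadjusted p under 0.05. All 3 calls were lost when any 1 of the 4 pools of these groups was left out, with cells of at least 1000 UMIs and with equal cell numbers, and Mt1 also lost its call with low counts kept. With the Vip barcodes left out 27 of 933 (2.89%) passed, 23 higher (2.47%) and 4 lower (0.429%). Mt1 differed by 2.68 (log2, SE 0.45, edgeR adjusted p = 0.0384) and Ddit4 by 4.21 (SE 0.67, adjusted p = 0.0384). This comparison shares its aN1aN2 pools with the one against RW.

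Genes of other cell types were also compared. Hbb-bs, a globin gene of red cells, was at 314, 368 and 180 CPM in RW and 1026 and 1414 in aN1aN2 without the Vip barcodes (log2 2.14, edgeR adjusted p = 0.00800). The erythroid list made up 0.0284 to 0.0762% of S UMIs in RW pools and 0.168 and 0.195% in aN1aN2 1 and 2. Pth, the parathyroid hormone gene, was at 46.4, 24.6 and 163 CPM in RW and 246 and 1052 in aN1aN2 (log2 3.08, SE 0.78, adjusted p = 0.0725). The thyrocyte list was at 0.0732 to 0.0966% in RW and 0.0643 and 0.101% in aN1aN2 1 and 2. The list of nerve sheath and other fibroblast genes was at 0.164 to 0.367% in RW and 0.0890 and 0.0830% in aN1aN2 1 and 2. Of its 12 genes 4 were tested and 0 passed. All 4 were lower, at a median log2 of -0.80 beside -0.16 over all genes, or -1.12 beside 0.00 without the Vip barcodes. Without those barcodes RW 1 read 0.240% for the thyrocyte list, 0.0590% for the erythroid list and 0.158% for the fibroblast list. Mitochondrial UMIs were at 5.60 to 10.4% in RW and at 7.71 and 11.1% in aN1aN2, and RW 1 read 12.3% without the Vip barcodes. The part of these and of depth in the changes was not tested.

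Several of the same genes also differed in other labels of the aN1aN2 pools. Tsc22d3 was at 516 and 1420 CPM in EC1 of RW and aN1aN2, at 504 and 1206 in the label EC4 and at 43.0 and 305 in Th1, and Ddit4 was at 39.7 and 779 in EC1 (means of 3 pools). Mt1 was not higher in Th1, at 10445 and 8555 CPM. Of the lower genes, Serpinh1 was at 1618 and 184 CPM in F and 394 and 203 in EC1, and Igfbp7 at 2475 and 1096 in F and 9516 and 5117 in EC1. A test was made against label F, where the fibroblast gene Dcn was at 23949 CPM over all samples. Mt1 was at 524 ± 21.6 CPM in F cells of RW and 5258 ± 2137 in those of aN1aN2 (SD, n = 3 each), and Tsc22d3 at 222 ± 78.2 and 2343 ± 285. The difference between the 2 labels in the aN1aN2 effect was tested with the pool as a block, and 22 of 5005 genes (0.44%) passed, or 44 of 4388 (1%) without the Vip barcodes. The same test for aJ1aJ2 called 3 of 5005 (0.0599%), or 4 of 4388 (0.0912%). For Mt1 it was 0.40 on the log2 scale (SE 0.52, edgeR adjusted p = 0.91), and for Tsc22d3 -0.62 (SE 0.59, adjusted p = 0.839). Nupr1 moved by 4.92 more in S than in F (SE 0.83, adjusted p = 0.000160). The plot by pool shows the rise of Mt1 and Tsc22d3 in both labels, and for Nupr1 higher pools in S but not in F.

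**Figure D5:**
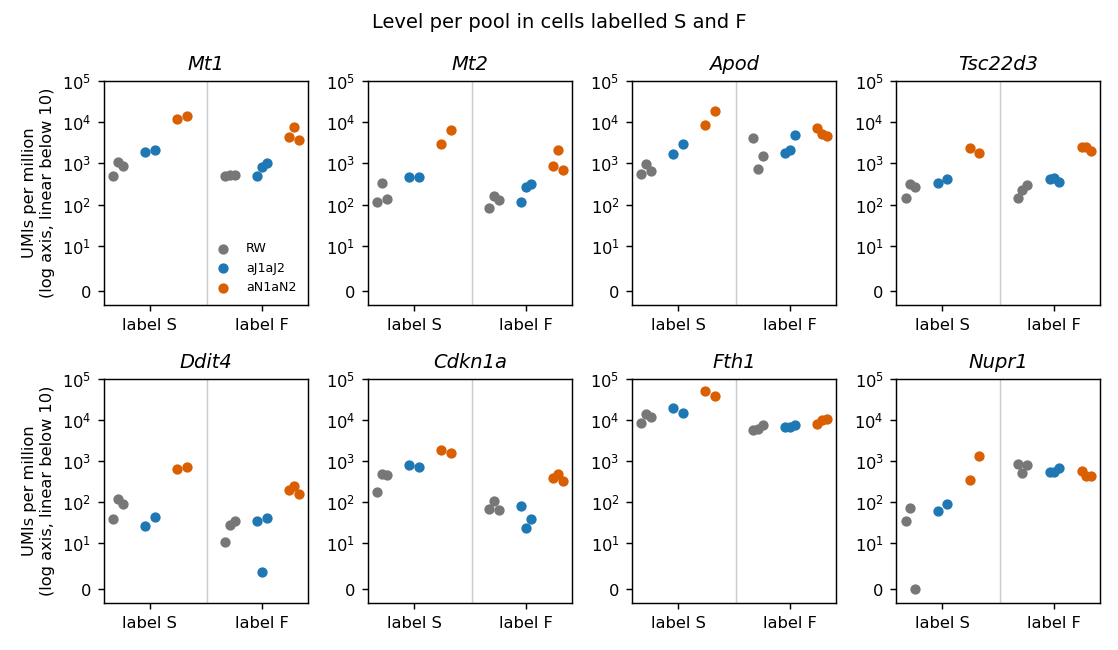
CPM (y axis, log scale, linear below 10) of 8 genes in each pool with at least 10 cells of label S or F (x axis), coloured by group. In S the 2 aN1aN2 pools lie above all RW pools for all 8 genes, and in F the same holds for Mt1, Mt2, Apod, Tsc22d3, Ddit4, Cdkn1a and Fth1 but not for Nupr1.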

How the data were processed

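Thyroid cells of 9 pools were profiled with 3′ droplet sequencing. The authors deposited UMI counts per gene and cell, made with Cell Ranger on GRCm38 per the submitters' processing notes, and an annotation with 16 cell labels. Versions, the gene annotation used for counting and the treatment of doublets are not given in the sources used here, and no doublet caller was run. The annotation had an unquoted comma in 2619 lines, which was repaired. Every cell had at least 500 UMIs, and all 52636 genes were read. S cells per pool held 3546 to 230832 UMIs.

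Counts of S cells were summed per pool, filtered with filterByExpr, scaled by TMM and tested with edgeR 4.0.16 (quasi-likelihood) in R 4.3.3, with Benjamini-Hochberg adjustment over all genes tested and a threshold of 0.05. Pools needed at least 20 S cells. No aN1aN2 pool reached this, so a minimum of 10 cells was used for the aN1aN2 comparisons. P-values measure the spread between pools, and intervals and floors (3 UMIs) cover counting error only. Shares were compared by exact permutation tests in scipy 1.17.1. Cells were clustered with scikit-learn 1.9.0 on 1000 variable genes and 10 principal components. The fitting code was also run on counts simulated with known changes, as a check of the code and not of the results here. Alternatives were DESeq2 1.42.0, its size factors, no filter, other cell minimums, fewer groups, equal cell numbers, left-out pools and, chosen after seeing the data, leaving out the Vip barcodes.

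Same-numbered RW and aN1aN2 pools did not deviate together (r = -0.0926 over 526 genes), and no label says that a number marks a shared batch. Named genes were those of the lists, and per comparison the 10 largest changes in each direction past the threshold with groups that did not overlap, or the 15 smallest p-values where fewer passed. Others were named after their values were seen. The members and lists were chosen with earlier results of these data known.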

Additional observations from a re-analysis of the deposited data

Results flagged for a closer look

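The effect of a treatment differed between labels S and F for 1 of 15 genes chosen under ligand blockade and 2 of 10 under receptor blockade, beside 3 and 22 of all 5005 genes, in edgeR's test of the difference with the pool as a block. The chosen genes were picked by their change in the same S counts, which favours a difference from F. Their share therefore cannot be compared with that of all genes. Igfbp6 moved by -3.73 on the log2 scale in S relative to F under ligand blockade, and by -3.23 without the Vip barcodes, which held most Igfbp6 counts of RW 1. As given above, RW 1 without those barcodes lay near the aJ1aJ2 pools for Igfbp6, and RW 3 lay far above them. The RW pools thus did not agree on this gene. Isyna1 moved by 4.97 and Nupr1 by 4.92 more in S than in F under receptor blockade. Isyna1 had 3 UMIs in S over the 3 RW pools, and 5 and 9 in the 2 aN1aN2 pools.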

How the results depend on the processing

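Counts of called genes depended on the fit, and the cause was not tested. For aJ1aJ2 against RW, 0 calls became 201 with low counts kept, 2 under DESeq2, 840 with the title series as a covariate and 2 with the same number of S cells from every pool. Leaving out 1 pool gave 4 to 1118. For aN1aN2 against RW, 18 calls became 37 with DESeq2, 90 with no filter, 7 with equal cell numbers and 51 without the Vip barcodes, and leaving out 1 pool gave 0 to 33. The fit with the replicate number as a block, on RW 1 and 2 and aN1aN2 1 and 2, called 0 of 526 genes, and the same 4 pools without the block also called 0. The pools share only a number. For aN1aN2 against aJ1aJ2, 3 calls became 13 with DESeq2, 6 with its size factors in edgeR, 9 with no filter, 12 at 5 cells per pool, 9 with only those 2 groups, 0 with cells of at least 1000 UMIs, 0 with equal cell numbers and 27 without the Vip barcodes. Leaving out 1 pool gave 0 in each case. The series covariate was not run for aN1aN2, whose pools are all of 1 series. Among the genes chosen by size of change or p (15, 21 and 15 in the 3 comparisons) 0 reversed, while 50 fits of a gene lost a call and 129 gained one. Listed genes outside these were not refitted under every alternative, and Mbp, not called, changed sign under ligand blockade without the Vip barcodes. The share differences kept their sign under all alternatives run, at 0.0539 to 0.818, -0.795 to -0.0446 and -1.23 to -0.471 points with 1 pool left out. Depth limits the aN1aN2 values, at a median of 875 UMIs per S cell, as do 2 usable pools.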
